A study of Homo sapiens with 6 samples.

Results

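Heat shock proteins and cytosolic chaperones were examined in RNA-seq libraries of cultured human cells with and without knockdown of CIRBP, a cold-inducible RNA-binding protein. The members were chosen by name: 51 gene names were listed, and a row of the deposited table was kept if it held at least 10 estimated counts in at least 3 of the 6 libraries. The names matched 52 rows, because HSPA14 is listed under 2 Ensembl identifiers, and HSPB7 did not reach the minimum. This left 51 rows from 50 genes, of 58884 rows in the table. All 51 were also among the 15421 genes tested below.

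The cells were an immortalized human cardiomyocyte line, which the labels name T0519 and the paper names AC16, grown in the same medium in both groups. They received a negative control siRNA (NC, 3 libraries) or an siRNA against CIRBP (SiCIRBP, 3 libraries), with no further treatment given in the labels. The study compared NC_2 and NC_3 with SiCIRBP_1 and SiCIRBP_3, and results over these 4 libraries are given first, with the level in each of the 6 libraries beside them. It left out NC_1 and SiCIRBP_2 as the most discrepant by correlation and principal component analysis. That choice used the same RNA-seq data, so p-values over the 4 libraries may be too small. Nothing in the labels says that the libraries came from separate cultures, so the p-values measure only the spread between these libraries.

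Chaperones hold unfolded proteins, help them fold and prevent their aggregation. HSP70 proteins bind short stretches of unfolded chain in a cycle started by J-domain proteins and ended by nucleotide exchange factors such as the BAG and HSP110 proteins, whereas HSP90 and the TRiC ring act on later folding steps. Under proteotoxic stress, the transcription factor HSF1 binds inverted repeats of GAA in the promoters of many of these genes and raises their transcription, and in heart muscle the small heat shock proteins are known for protecting the contractile apparatus.

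Promoter windows are shown for 4 members that carry this repeat, because it is the sequence through which HSF1 acts on the family. RefSeq promoters on GRCh38.p14, from 250 bases before to 50 bases after a start site, were matched for 45 of the 50 member genes, in 64 windows. The motif searched was GAA, TTC and GAA, or TTC, GAA and TTC, with 2 bases of any kind between blocks, which reads both strands, and overlapping matches were counted. The sequences run 5′ to 3′ on the strand of the gene, and capitals mark the matched stretches.
HSPD1, chr2:197499791-197500090, minus strand: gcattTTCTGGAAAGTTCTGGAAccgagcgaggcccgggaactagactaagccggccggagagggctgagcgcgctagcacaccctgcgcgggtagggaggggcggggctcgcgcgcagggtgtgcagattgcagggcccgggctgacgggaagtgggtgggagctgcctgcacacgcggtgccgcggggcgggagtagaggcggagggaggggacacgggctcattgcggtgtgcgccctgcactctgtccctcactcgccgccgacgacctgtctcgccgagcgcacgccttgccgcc
DNAJA1, chr9:33025023-33025322, plus strand: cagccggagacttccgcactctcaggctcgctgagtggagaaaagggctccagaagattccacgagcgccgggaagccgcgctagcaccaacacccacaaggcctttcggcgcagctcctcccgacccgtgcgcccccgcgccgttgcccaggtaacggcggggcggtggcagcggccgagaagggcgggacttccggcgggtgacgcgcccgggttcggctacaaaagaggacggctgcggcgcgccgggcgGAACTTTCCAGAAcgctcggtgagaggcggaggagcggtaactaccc
HSPA8, chr11:123062087-123062386, minus strand: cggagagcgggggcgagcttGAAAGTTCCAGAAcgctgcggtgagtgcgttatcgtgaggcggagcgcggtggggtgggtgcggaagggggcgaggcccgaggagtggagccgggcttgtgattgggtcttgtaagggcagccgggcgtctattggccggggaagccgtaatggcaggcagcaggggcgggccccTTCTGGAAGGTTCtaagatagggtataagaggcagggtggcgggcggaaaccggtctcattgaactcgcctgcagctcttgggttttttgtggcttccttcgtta
CHORDC1, chr11:90223000-90223299, minus strand: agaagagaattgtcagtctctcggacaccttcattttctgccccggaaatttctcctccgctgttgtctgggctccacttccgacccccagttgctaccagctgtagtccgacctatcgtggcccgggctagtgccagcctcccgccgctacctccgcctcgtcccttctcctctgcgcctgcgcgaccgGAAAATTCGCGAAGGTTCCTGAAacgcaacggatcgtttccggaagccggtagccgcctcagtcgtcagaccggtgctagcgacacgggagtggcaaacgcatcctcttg

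The 3 blocks were found in 8 of the 64 windows (12.5%), from 8 genes, beside 172 of 35116 windows over all genes (0.49%). Besides the 4 genes shown, these were DNAJB6, HSP90AA1, HSP90AB1 and SERPINH1. With 2 inverted blocks in place of 3, the motif was found in 23 member genes and in 37.5% of their windows, beside 13.5% of all windows. A match describes letters in this window and not a site that HSF1 occupied in these cells. Nor does a window without a match show that a gene lacks such an element. HSPA1A, HSPA1B, HSPB1 and DNAJB1 had the motif of 2 blocks but not that of 3. Promoters of FKBP4, HSPA14, HSF1, CRYAB and BAG4 were not matched.

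The level of CIRBP, the gene targeted, checked the labels. Its CPM (counts scaled to library size, here TMM-normalised) were 86.3, 85.7 and 90.9 in NC_1, NC_2 and NC_3, and 54.7, 24.3 and 46.2 in SiCIRBP_1, SiCIRBP_2 and SiCIRBP_3. The log2 fold change, SiCIRBP against NC, was -0.81 over the 4 libraries (SE 0.11, edgeR adjusted p = 0.00828) and -1.07 over all 6 (edgeR adjusted p = 0.103). Libraries held between 25726259 and 29919566 estimated counts. Of 17 cardiomyocyte markers, 4 (RYR2, PLN, MYH6 and MYL2) were at 0 in all 6 libraries and only 5 had enough counts to be tested, so markers of the mature contractile apparatus were largely absent, and in bulk RNA a change in cell numbers and in RNA per cell cannot be told apart. Summed cardiomyocyte markers were 111.8 to 142.4 CPM in NC and 77.7 to 104.2 CPM in SiCIRBP. Most of this was GATA4, with 87.2 to 111.0 CPM in NC and 47.4 to 84.5 CPM in SiCIRBP. Of the 5 tested over the 4 libraries, MB was higher, GATA4 and NKX2-5 were lower, and ACTN2 and TNNI3 did not pass. Summed fibroblast markers were 7659 to 7804 CPM in NC and 8289, 7404 and 11874 CPM in SiCIRBP. Summed immune markers were 9.21 to 10.7 TPM in NC and 11.3 to 13.2 TPM in SiCIRBP. CD68 made up most of the immune sum, with 6.89 to 7.45 TPM in NC and 9.22 to 11.98 TPM in SiCIRBP. CD14, at 1.51 to 2.87 TPM in NC and 0.77 to 1.93 TPM in SiCIRBP, was not higher. The higher sum therefore followed CD68 and not the immune markers as a set. The part of these shifts in the chaperone values was not tested.

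**Figure D1:**
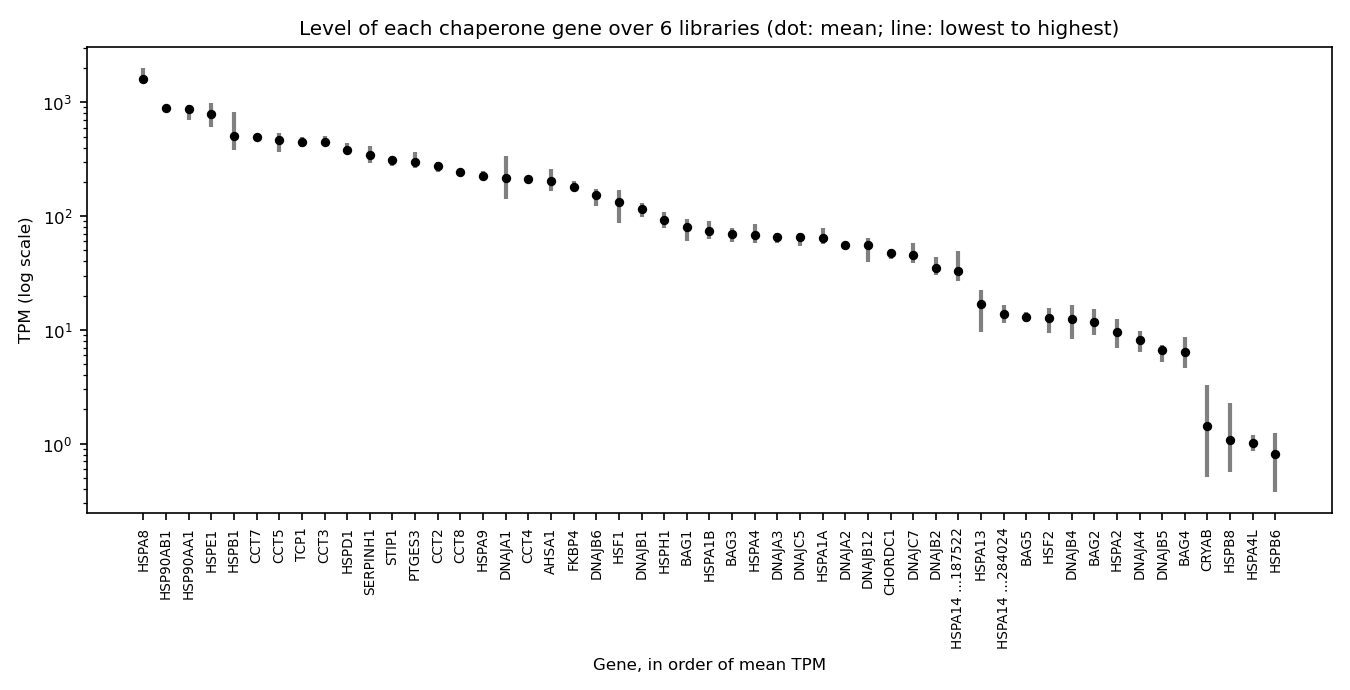
Mean TPM of each of the 51 rows over the 6 libraries on a log scale, in order, with a line from the lowest to the highest library. HSPA8 leads at 1614 TPM, and HSPB6, HSPA4L, HSPB8 and CRYAB sit lowest, near 1 TPM.

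Per unit of transcript length, HSPA8 was the most abundant member, with a mean of 1614 TPM and a range of 1485 to 1992 over the 6 libraries. HSPA8 is the constitutive cytosolic HSP70. It was followed by the HSP90 genes HSP90AB1, at 892 TPM (855 to 911), and HSP90AA1, at 866 TPM (705 to 955), whose ranges overlapped, so their order is not beyond the spread. The mitochondrial co-chaperonin HSPE1 had 794 TPM and the small heat shock protein HSPB1 502 TPM. At the other end, HSPB6, HSPA4L, HSPB8 and CRYAB had means of 0.81, 1.02, 1.08 and 1.44 TPM. The 51 rows together held 1.01% to 1.06% of all TPM in the NC libraries, 1.05% in SiCIRBP_1, 1.15% in SiCIRBP_2 and 1.16% in SiCIRBP_3.

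Over the 4 libraries, 8 of 51 members (15.7%) were higher in SiCIRBP at an edgeR adjusted p under 0.05, beside 9.62% of all genes tested, and 4 (7.84%) were lower, beside 9.76%. The members that rose were the J-domain protein DNAJA1, the HSP90 co-chaperones AHSA1 and STIP1, the mitochondrial chaperonin pair HSPD1 and HSPE1, the TRiC subunit CCT5, the HSP110 protein HSPA4 and the HSP70 protein HSPA2. Those that fell were DNAJB4, HSPA13, HSPA1B and BAG4. None of the 51 changed 2-fold or more as well, whereas 3.62% of all genes did. A positive log2 fold change was seen in 36 members (70.6%), beside 49.8% of all genes, and the median over the members was 0.16, beside -0.00 over all genes. This median was 0.25 over all 6 libraries, beside 0.01 over all genes, and fell to 0.076 without SiCIRBP_3 and 0.10 without NC_3, so its sign held in these fits and its size did not.

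These calls depended on the libraries used. Over all 6 libraries edgeR called 0 members, and 0.0% of the 15217 genes tested, with a smallest adjusted p of 0.107 among members and 0.0853 among all genes. At an unadjusted p under 0.05 there were 17 members (33.3%), beside 23.7% of all genes. DESeq2 over the same 6 libraries called AHSA1, DNAJA1, CCT5 and HSPB8 higher and HSPA13 lower, beside 9.52% of all genes in either direction. Each fit that left out 1 of the 4 libraries assumed the lone library of a group to vary like the other group. Without SiCIRBP_1, 23 members (45.1%) were higher, beside 21.2% of all genes, and 8 (15.7%) lower, beside 23.1%. Without SiCIRBP_3, 16 (31.4%) were higher, beside 19.1%, and 8 (15.7%) lower, beside 21.1%. Without NC_2 edgeR called 0 members, beside 0.428% of all genes higher and 0.613% lower, and without NC_3 it called 0, beside 0.158% and 0.246%. Adding NC_1 to the 4 libraries kept AHSA1 (edgeR adjusted p = 0.0458) among 3.57% of all genes higher, and DNAJB4 (edgeR adjusted p = 0.0396) among 3.63% lower. Adding SiCIRBP_2 gave 0 member calls, beside 0.0322% of all genes higher and 0.0837% lower.

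**Figure D2:**
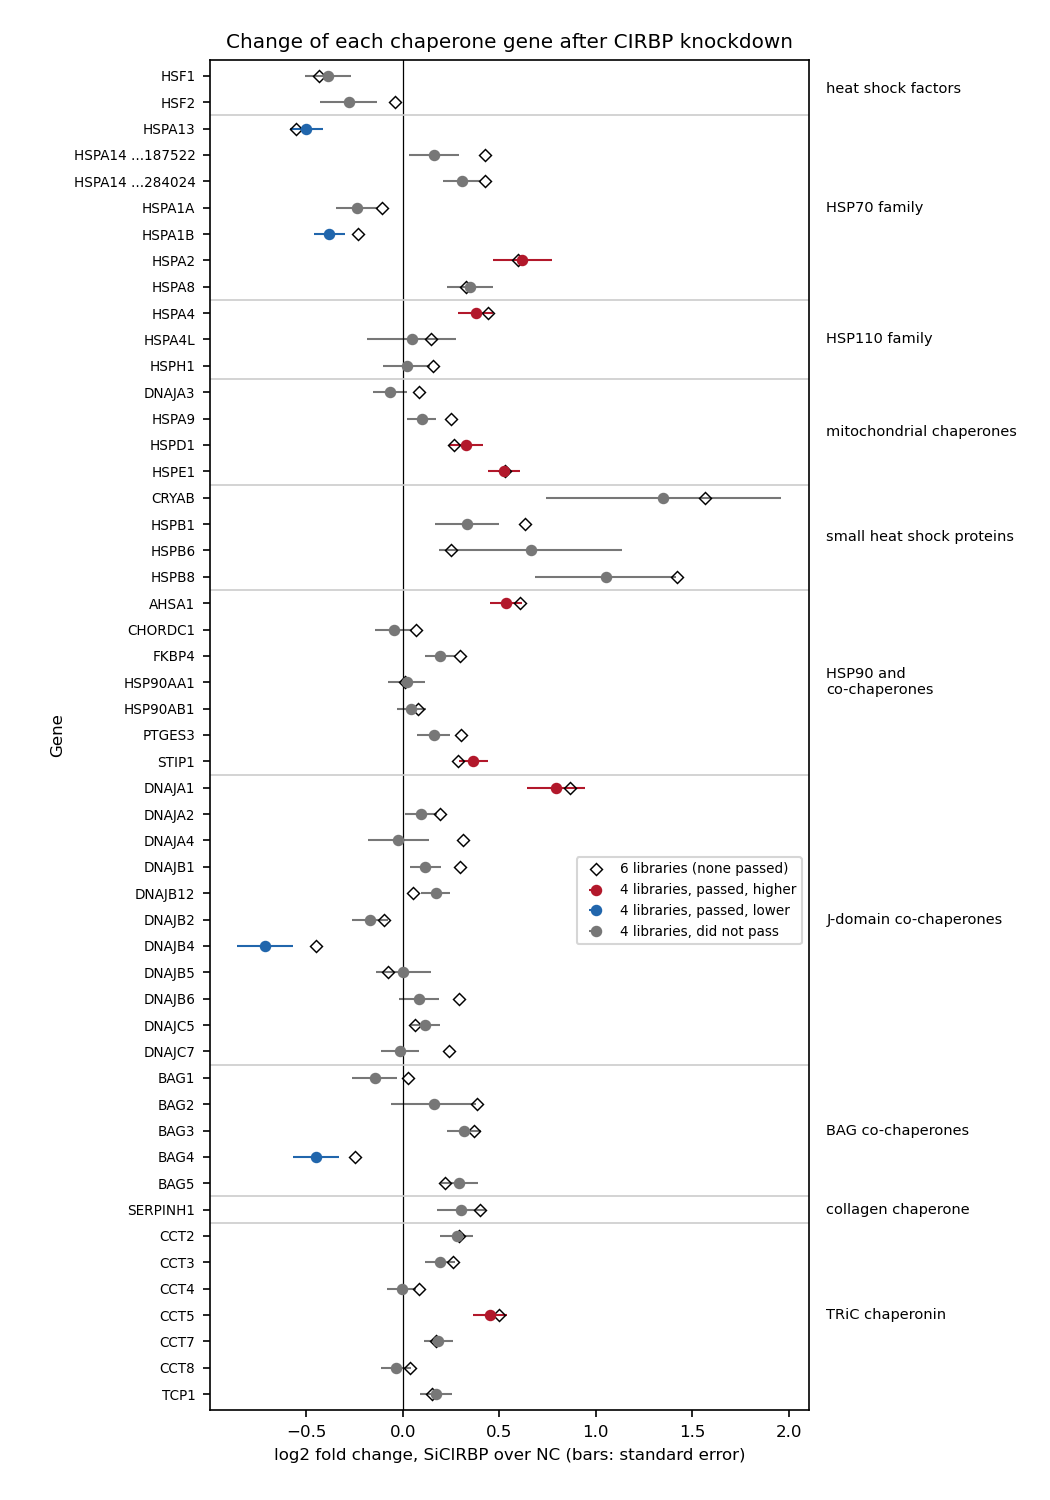
Log2 fold change of each member, SiCIRBP against NC, grouped by role: dots with standard error bars for the 4 libraries, open diamonds for all 6. DNAJA1 has the highest value among members that passed (0.80) and DNAJB4 the lowest (-0.71), and the low-count CRYAB, HSPB6 and HSPB8 have the widest errors.

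The heat shock factors did not pass the test. HSF1, the main activator of the heat shock response, had 197, 220.1 and 218.2 CPM in the NC libraries and 187.7, 135.6 and 147.3 CPM in SiCIRBP. All SiCIRBP values of HSF1 lay below all NC values. Its log2 fold change was -0.39 (SE 0.12, edgeR adjusted p = 0.0657), and DESeq2 over the same 4 libraries gave an adjusted p of 0.0209. Without SiCIRBP_3 the log2 fold change was -0.23. HSF2, a related factor, had 20.2, 21.0 and 25.8 CPM in NC and 17.9, 26.5 and 20.6 CPM in SiCIRBP, with overlapping groups (log2 fold change -0.28, SE 0.15, edgeR adjusted p = 0.215). That value was -0.13 without NC_3, -0.42 without NC_2 and -0.043 over all 6 libraries.

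In the HSP70 family, 1 of 7 rows rose and 2 fell, beside 9.62% and 9.76% of all genes. HSPA2, best known from the testis, had 19.4, 13.7 and 14.1 CPM in NC and 18.6, 28.7 and 24.1 CPM in SiCIRBP (log2 fold change 0.62, SE 0.15, edgeR adjusted p = 0.0368). NC_1, which was not in that fit, lay above SiCIRBP_1. HSPA13, a microsome-associated member, had 51.5, 62.5 and 62.0 CPM in NC and 43.8, 32.0 and 44.3 CPM in SiCIRBP (log2 fold change -0.50, SE 0.09, edgeR adjusted p = 0.0153), and its groups did not overlap. The constitutive HSPA8 had 2250, 2190 and 2136 CPM in NC and 2426, 2740 and 3081 CPM in SiCIRBP. Its 3 SiCIRBP libraries were all above NC, but the change of 0.35 on the log2 scale did not pass (SE 0.12, edgeR adjusted p = 0.0855; DESeq2 adjusted p = 0.0263), and it was 0.16 without SiCIRBP_3.

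The stress-inducible pair HSPA1A and HSPA1B encode nearly the same protein and lie close together on chromosome 6, at 31815464 to 31817946 and 31827735 to 31830255 on the plus strand of GRCh38. Of their 30-base words, 73.7% and 73.3% are shared, so the split of reads between them is uncertain. HSPA1B had 124.2, 157.7 and 149.4 CPM in NC and 120.6, 130.8 and 115.1 CPM in SiCIRBP (log2 fold change -0.38, SE 0.08, edgeR adjusted p = 0.0244). HSPA1A had 94.8, 129.6 and 107.7 CPM in NC and 97.8, 107.5 and 103.0 CPM in SiCIRBP (log2 fold change -0.24, SE 0.11, edgeR adjusted p = 0.162). For both genes the groups overlapped through NC_1. Over all 6 libraries the values were -0.23 for HSPA1B (edgeR adjusted p = 0.297) and -0.11 for HSPA1A, which was -0.10 without NC_2 and -0.37 without NC_3. Summed, the pair had 218.9, 287.4 and 257.1 CPM in NC and 218.4, 238.3 and 218.1 CPM in SiCIRBP (log2 fold change -0.32, SE 0.08, edgeR adjusted p = 0.0440), and over all 6 libraries the value was -0.18 (edgeR adjusted p = 0.419).

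Of the HSP110 proteins, which release nucleotide from HSP70, HSPA4 rose from 186.4, 164.6 and 158.7 CPM in NC to 196.6, 272.6 and 223.5 CPM in SiCIRBP, without overlap (log2 fold change 0.38, SE 0.09, edgeR adjusted p = 0.0332). HSPH1, the most abundant of the 3 per length, did not pass. It had 224.9, 232.2 and 215.7 CPM in NC and 200.7, 297.2 and 253.1 CPM in SiCIRBP (log2 fold change 0.02, SE 0.12, edgeR adjusted p = 0.923), so the SiCIRBP libraries lay on both sides of NC.

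HSPD1 and HSPE1 encode the subunits of the mitochondrial folding chamber and its lid, and they lie on opposite strands of chromosome 2, at 197486581 to 197516737 on the minus strand and 197499994 to 197503457 on the plus strand, so that HSPE1 falls within the annotated span of HSPD1. HSPE1 had 182.8, 147 and 136.4 CPM in NC and 197.8, 266.9 and 209.2 CPM in SiCIRBP (log2 fold change 0.52, SE 0.08, edgeR adjusted p = 0.0121). HSPD1 had 533.4, 499.1 and 486.6 CPM in NC and 578, 591.3 and 656.6 CPM in SiCIRBP (log2 fold change 0.33, SE 0.09, edgeR adjusted p = 0.0454). In both genes each SiCIRBP library exceeded each NC library in CPM. Of the words of HSPE1, 12.3% occur on the opposite strand in HSPD1, and the strand setting of the counting is not given in the sources used here, so reads of the pair may not be told apart there. Also, 32.2% of the words of HSPD1 occur in any other gene, pseudogenes included. The other mitochondrial members, HSPA9 and DNAJA3, had log2 fold changes of 0.10 and -0.07 and did not pass.

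None of the 4 small heat shock proteins passed over the 4 libraries. HSPB1, which binds unfolding proteins and actin, had 208.7, 199.3 and 184.8 CPM in NC and 197.2, 437.4 and 285.9 CPM in SiCIRBP (log2 fold change 0.33, SE 0.17, edgeR adjusted p = 0.198). SiCIRBP_1 lay within the NC range, whereas SiCIRBP_2 was the highest library. The HSPB1 value was 0.035 without SiCIRBP_3, 0.57 without SiCIRBP_1 and 0.64 over all 6 libraries. HSPB8, the partner of BAG3 in selective autophagy, had only 30, 21 and 27 estimated counts in NC and 40, 100 and 61 in SiCIRBP (log2 fold change 1.05, SE 0.36, edgeR adjusted p = 0.0865). CRYAB, the alpha B-crystallin of muscle and lens, had 13, 6 and 9 counts in NC and 11, 41 and 28 in SiCIRBP (log2 fold change 1.35, SE 0.61, edgeR adjusted p = 0.161). Without SiCIRBP_3 the values were 0.68 for HSPB8 and 0.49 for CRYAB. Counting error is large for both of these genes, and 16.2% of the words of CRYAB occur on the opposite strand in HSPB2.

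Among HSP90 and its co-chaperones, 2 of 7 rose and none fell, beside 9.62% and 9.76% of all genes. AHSA1, which stimulates the ATPase of HSP90, had 133.8, 116.7 and 107.4 CPM in NC and 162.6, 220.5 and 162.3 CPM in SiCIRBP (log2 fold change 0.54, SE 0.08, edgeR adjusted p = 0.0114). STIP1, the adaptor that joins HSP70 to HSP90, had 467.8, 409.8 and 384.6 CPM in NC and 511.9, 517.3 and 511.3 CPM in SiCIRBP (log2 fold change 0.37, SE 0.08, edgeR adjusted p = 0.0226). The groups did not overlap in CPM for either gene. HSP90AB1, the constitutive HSP90, had 1612, 1621 and 1563 CPM in NC and 1642, 1777 and 1637 CPM in SiCIRBP, and its log2 fold change was 0.04 (SE 0.07, edgeR adjusted p = 0.71). Of the words of HSP90AB1, 37% occur in other genes, largely its pseudogenes. The remaining 4, among them the co-chaperone PTGES3 and the immunophilin FKBP4, had log2 fold changes from -0.05 to 0.19.

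J-domain proteins deliver clients to HSP70. Of their 11 rows, 1 rose and 1 fell over the 4 libraries, beside 9.62% and 9.76% of all genes. DNAJA1, on chromosome 9 at 33025211 to 33039907 on the plus strand, had 320.4, 237.5 and 215.7 CPM in NC and 331.4, 624.7 and 455.1 CPM in SiCIRBP (log2 fold change 0.80, SE 0.15, edgeR adjusted p = 0.018). The groups did not overlap in CPM, although NC_1 came close to SiCIRBP_1. DNAJB4 had 16.7, 18.4 and 19.8 CPM in NC and 10.5, 16.9 and 12.7 CPM in SiCIRBP (log2 fold change -0.71, SE 0.14, edgeR adjusted p = 0.0211), and SiCIRBP_2 fell among the NC values. Over all 6 libraries it was -0.45 (edgeR adjusted p = 0.215). DNAJC7 had 48.3, 46.6 and 45.8 CPM in NC and 47.7, 74.8 and 43.8 CPM in SiCIRBP. Its direction turned from -0.01 over the 4 libraries to 0.24 over all 6 (edgeR adjusted p = 0.93 and 0.479), with SiCIRBP_2 alone above the rest. The other 8 J-domain rows had log2 fold changes from -0.17 to 0.17.

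BAG proteins release clients from HSP70. BAG4 had 17.3, 18.9 and 19.3 CPM in NC and 14.5, 18.7 and 13.5 CPM in SiCIRBP (log2 fold change -0.45, SE 0.12, edgeR adjusted p = 0.0441), and DESeq2 over the same libraries gave an adjusted p of 0.0777. SiCIRBP_2 lay within the NC range of BAG4, and the value over all 6 libraries was -0.25 (edgeR adjusted p = 0.377). BAG1, the most abundant per length, had 56.6, 61.4 and 55.1 CPM in NC and 56.7, 71.1 and 48.5 CPM in SiCIRBP (log2 fold change -0.15, SE 0.11, edgeR adjusted p = 0.393), and the sign turned over 6 libraries (0.03). Without SiCIRBP_1 the log2 fold change was -0.27, and without SiCIRBP_3 it was -0.042. BAG3, which links chaperones to autophagy, had a log2 fold change of 0.32 and an edgeR adjusted p of 0.0508. SERPINH1, the collagen chaperone of the endoplasmic reticulum, had 470.7, 457 and 415.8 CPM in NC and 472.3, 693.7 and 604.5 CPM in SiCIRBP (log2 fold change 0.30, SE 0.13, edgeR adjusted p = 0.134) and did not pass. Its value was 0.11 without SiCIRBP_3 and 0.46 without SiCIRBP_1.

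TRiC is the ring that folds actin and tubulin. Of its 7 listed subunits, CCT5 rose, from 575.4, 504 and 462.2 CPM in NC to 631.7, 859.9 and 688.9 CPM in SiCIRBP (log2 fold change 0.45, SE 0.09, edgeR adjusted p = 0.0186). Of the words of CCT5, 29% occur on the opposite strand in AC012640.4. CCT7, the subunit with the highest mean TPM over the 6 libraries, though CCT5 was above it in SiCIRBP_2 and SiCIRBP_3, had 612.5, 570.4 and 543.7 CPM in NC and 643.9, 678.5 and 620.6 CPM in SiCIRBP, without overlap, and did not pass (log2 fold change 0.18, SE 0.08, edgeR adjusted p = 0.13). The other 5 subunits had log2 fold changes from -0.04 to 0.28.

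**Figure D3:**
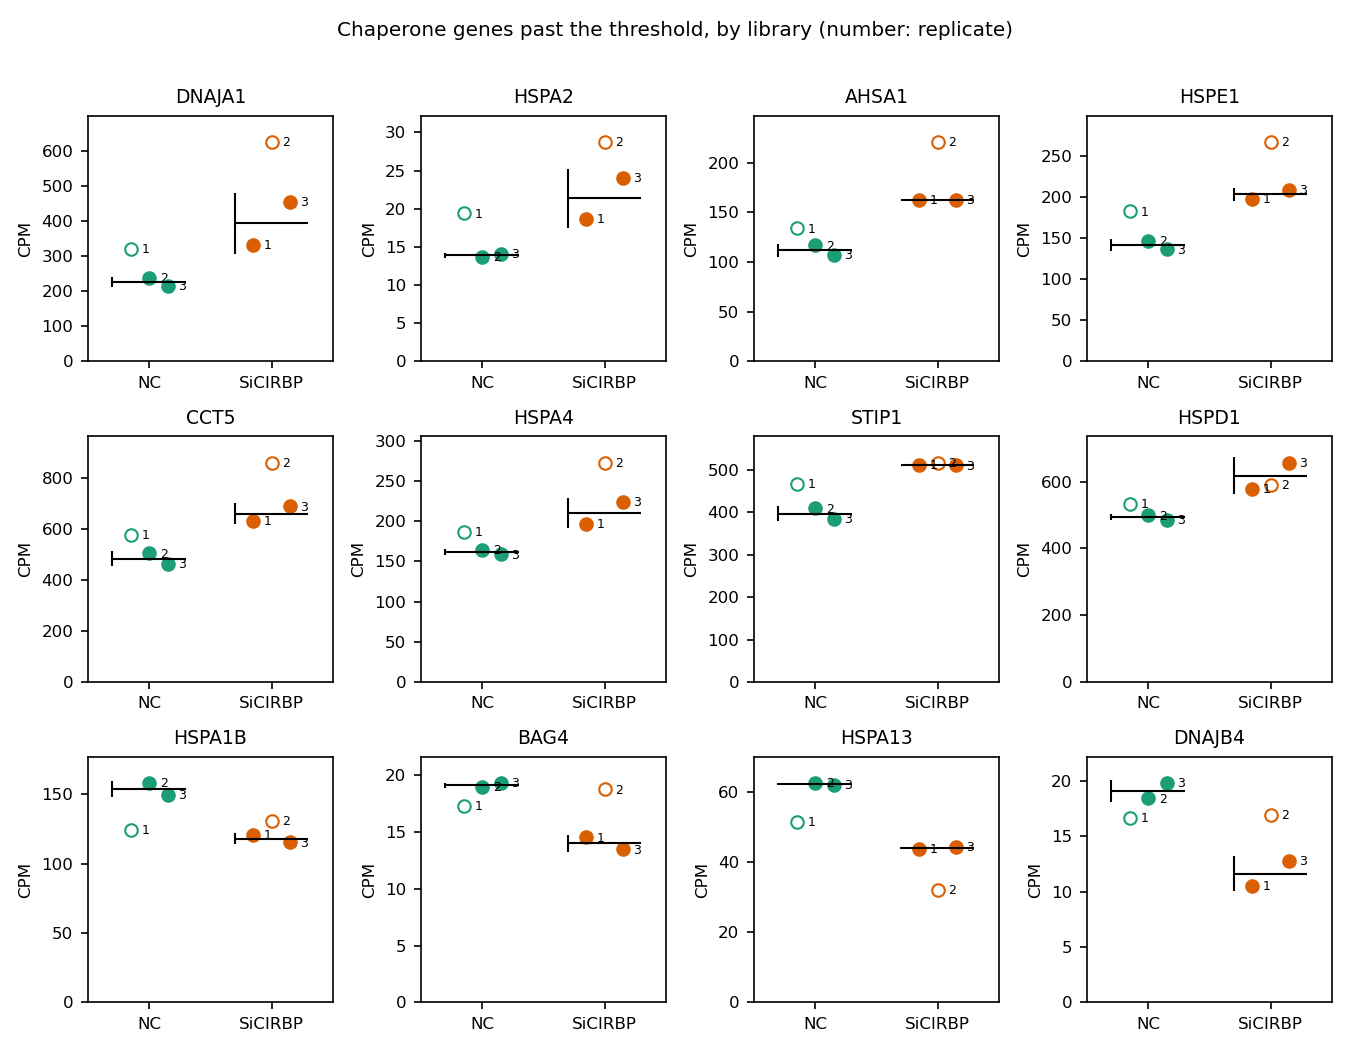
CPM of the 12 members that passed over the 4 libraries, one panel per gene and one point per library, for NC and SiCIRBP. DNAJA1 ranges from 215.7 CPM in NC_3 to 624.7 CPM in SiCIRBP_2, and the SiCIRBP_2 points of DNAJB4, HSPA1B and BAG4 lie nearer to NC than the other SiCIRBP points.

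Over all 6 libraries, 22 members (43.1%) had every SiCIRBP value above every NC value, beside 16.2% of all genes, and HSF1 and HSPA13 (3.92%) had every value below, beside 16.6%. An exact permutation test of 3 against 3 libraries cannot give a p under 0.1. The counts depended on the scale. In TPM the median of all genes fell by 0.10 on the log2 scale between the groups of the 4 libraries, and 9 members lay above (8.61% of all genes) and 7 below (22.6%). Of the members that passed, DNAJA1, HSPA4, STIP1 and HSPD1 were apart in CPM but overlapped in TPM. For HSPD1, SiCIRBP_2 had 352 TPM, below the 357 to 378 TPM of NC. AHSA1, HSPE1, CCT5 and HSPA13 were apart in both. With TPM centred on the median gene of each library, a scale added after seeing the data, 23 lay above (20.6%) and 3 below (10.9%). No member that passed changed direction in TPM, centred or not, whereas 7 of the 51 did in TPM and 5 in centred TPM.

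SiCIRBP_2, which the study left out because it was discrepant, stood apart for the members too. It had the highest CPM of the 6 libraries for 36 members (70.6%), beside 31.0% of all genes, and the lowest for 5 (9.8%), beside 32.2%. The 5 lowest were HSF1, HSPA13, DNAJB12, DNAJB5 and DNAJC5. Its farthest departures above the other libraries, on the log2 scale, were 0.84 for HSPB8, 0.78 for HSPA14 under ENSG00000187522, 0.67 for CRYAB, 0.63 for DNAJC7 and 0.61 for HSPB1. This HSPA14 row had 37.3, 32.0 and 28.2 CPM in NC and 30.7, 64.0 and 36.5 CPM in SiCIRBP (log2 fold change 0.16, SE 0.13, edgeR adjusted p = 0.414), with 0.027 without SiCIRBP_3, 0.27 without SiCIRBP_1 and 0.43 over all 6 libraries. The other HSPA14 row, ENSG00000284024, had groups without overlap (log2 fold change 0.31, SE 0.10, edgeR adjusted p = 0.0691). There SiCIRBP_2 lay 0.31 above the other libraries. The same library had the lowest CIRBP, at 24.3 CPM against 54.7 in SiCIRBP_1 and 46.2 in SiCIRBP_3. In it 19 interferon-stimulated genes summed to 6326 CPM, against 617 to 648 in NC, 343 in SiCIRBP_1 and 1186 in SiCIRBP_3. The part of either in the chaperone values was not tested.

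**Figure D4:**
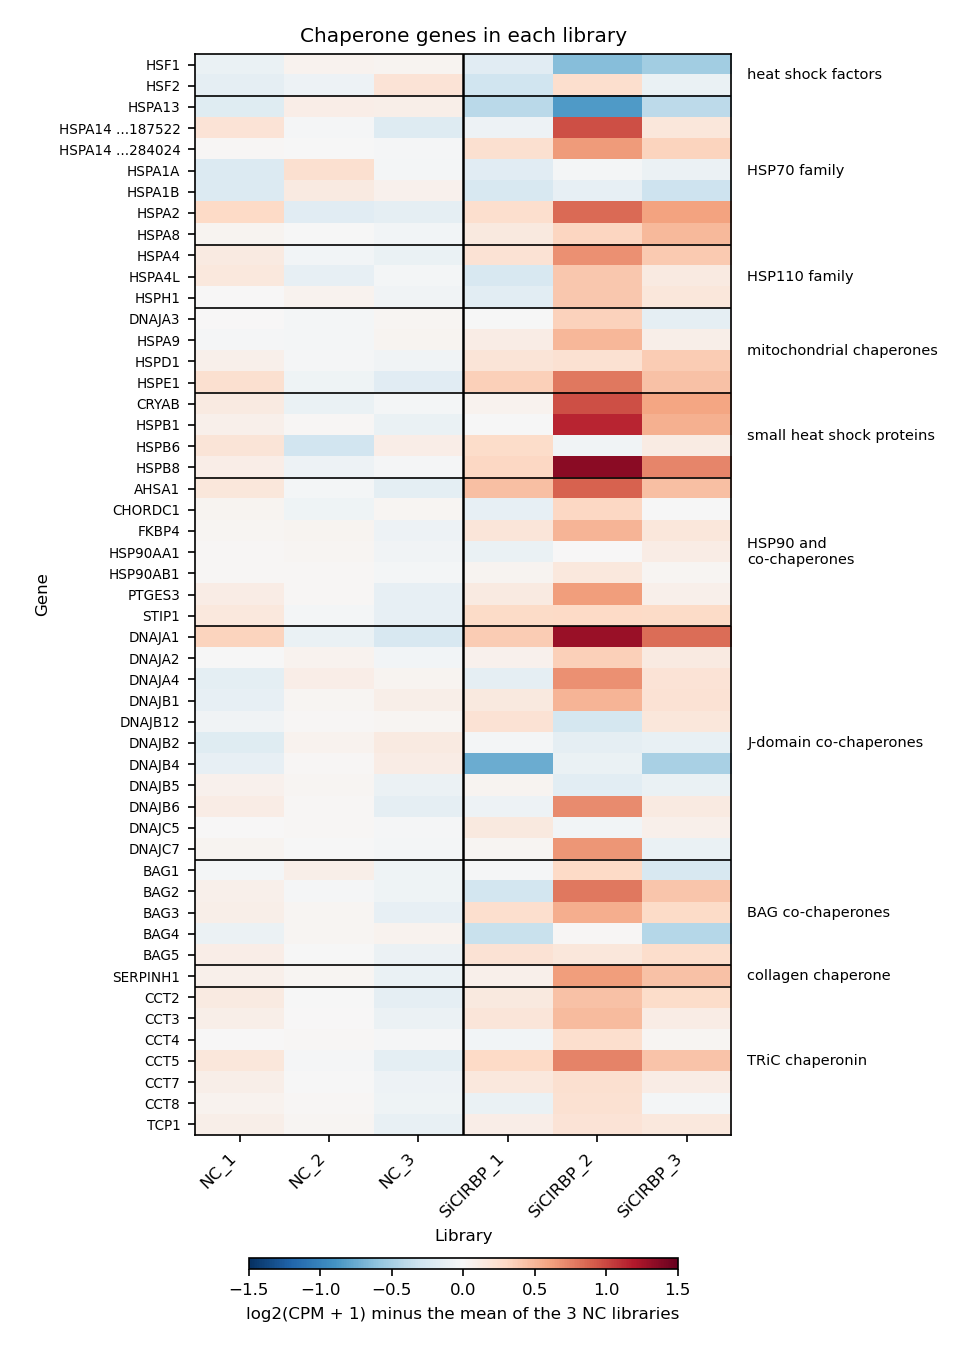
Log2(CPM + 1) of each member in each library, minus the mean of the 3 NC libraries, ordered by role. SiCIRBP_2 holds the highest value for 36 of the 51 rows, and HSF1 and HSPA13 are below NC in all 3 SiCIRBP libraries.

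**Figure D5:**
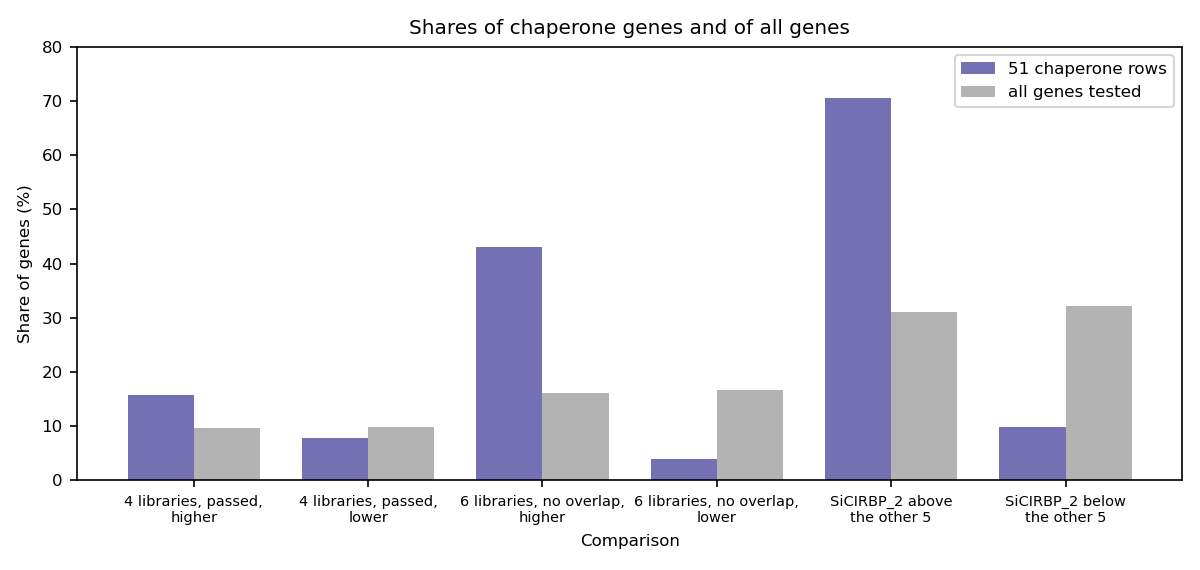
Share of the 51 chaperone rows and of all genes tested, in percent, for 6 counts: passing the edgeR test over the 4 libraries, groups without overlap over 6 libraries, and SiCIRBP_2 outside the other 5, each in both directions. SiCIRBP_2 is highest for 70.6% of members and 31.0% of all genes, and 43.1% of members and 16.2% of all genes are higher without overlap.

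The motif was then set beside the test over the 4 libraries. Among genes with a matched promoter, 2 of 8 that rose carried it (HSPD1 and DNAJA1), as did 0 of 3 that fell and 6 of 34 that did not pass. HSPE1 counts among those that rose without it. Its window, chr2:197500129-197500428 on the plus strand, lies close to the HSPD1 window with the match, chr2:197499791-197500090. The median log2 fold change was 0.19 over the 8 genes with the blocks and 0.12 over the 37 without.

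A second readout was the transcript length implied by the ratio of count to TPM, which moves when the isoforms assigned to a gene change. Of 49 members with enough counts, 0 passed at a limma adjusted p under 0.05, as did 0.0% of 14091 genes, and 4 members (8.16%) had an unadjusted p under 0.05, beside 11.5% of all genes. HSPA9 had the smallest limma adjusted p, 0.256, with a difference of 0.17 on the log2 scale.

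For the lists below, 9.62% of all genes tested over the 4 libraries were higher and 9.76% lower. Outside the members, a list of 56 other chaperones had 53 tested, of which 8 were higher and 7 lower, with a median log2 fold change of 0.06. It included the TRiC subunit CCT6A, which rose by 0.45 (SE 0.09, edgeR adjusted p = 0.0215), and HSPA6, a strictly inducible HSP70, which fell by 3.03 (SE 0.60, edgeR adjusted p = 0.0205). HSPA6 had 6, 29 and 20 estimated counts in NC and 4, 16 and 2 in SiCIRBP, and 57.3% of its words are shared with HSPA7. Over all 6 libraries its value was -1.27 (edgeR adjusted p = 0.367). Of 17 chaperone and stress genes of the endoplasmic reticulum, 2 chaperone genes rose (SDF2L1 and CRELD2) and 2 stress genes fell (XBP1 and HERPUD1). NC_1, which was not in that fit, lay below all SiCIRBP libraries for both genes that fell. XBP1 had 97.3 CPM in NC_1 and 102.6 to 127.5 CPM in SiCIRBP, and HERPUD1 had 56.4 CPM and 56.7 to 92.2 CPM. Over all 6 libraries their edgeR adjusted p was 0.285 and 0.71. Of 15 ATF4 target genes, which answer amino acid and other stress, 9 fell and 0 rose, and their summed level was 2754, 3687 and 4052 CPM in NC and 3326, 3157 and 2427 CPM in SiCIRBP, with overlapping groups.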

How the data were processed

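RNA-seq was carried out on 3 NC and 3 SiCIRBP libraries, grouped by their labels. Per the labels, fastp, HISAT and RSEM were used with hg38, with no versions given, and the annotation release and strand setting are not given in the sources used here. The authors deposited an estimated count per gene and library, without normalization and often with decimals. TPM values, which the authors normalized for transcript length and library size, were deposited beside the counts. The authors' deposited ratio (fold change), log2 fold change and p-value columns were not used.

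Counts, after rounding, were tested over the whole table with edgeR 4.0.16 in R 4.3.3 (TMM, filterByExpr, glmQLFit and glmQLFTest), with Benjamini-Hochberg adjustment over all genes tested and a threshold of 0.05. The fit used the 4 libraries that the study compared. Each SE was obtained as |log2 fold change| over the root of the F statistic. CPM values were TMM-normalised over 6 libraries. Implied transcript length, log2(count / TPM) centred on each library's median, was tested with limma 3.58.1 for genes with at least 10 counts in each of the 4 libraries. Shared sequence was counted as 30-base words of GENCODE transcripts on GRCh38, which also gave gene locations. Scripts ran in Python 3.11.15 with pandas 2.3.3 and were tested on simulated data.

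The members and lists were chosen with earlier results of these data known. Values in every library are given for members past the threshold, both heat shock factors, HSPA1A and HSPA1B, the member with the highest mean TPM in each role, and the 5 with the largest departure of SiCIRBP_2. Any other member named was named for its count or place in a list, or as the other HSPA14 row. The alternatives were all 6 libraries, a replicate block, each library left out or added, DESeq2 1.42.0, RLE size factors, other count filters, TPM and a shorter motif. Totals of 25726259 to 29919566 counts per library leave counting error small except for members with few counts. With 2 libraries per group, the estimate of the spread leans on the trend over all genes.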

Additional observations from a re-analysis of the deposited data

How the results depend on the processing

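Of the 8 higher and 4 lower members, the edgeR counts became 0 and 0 over all 6 libraries, with the replicate block, and with SiCIRBP_2 added to the 4 libraries, 1 and 1 with NC_1 added, and 4 and 1 with DESeq2 over 6 libraries. Without a filter on low counts 14 were higher. Leaving out 1 of the 4 libraries gave 0 to 23 higher and 0 to 8 lower. DESeq2 and RLE size factors over the 4 libraries and a minimum of 10 counts kept both counts within 1.5 times. In TPM, 9 members lay above and 7 below without overlap, in place of 22 and 2. SiCIRBP_2 was highest in TPM for 23 (19.3% of all genes) and lowest for 11 (42.3%), in place of 36 and 5. Centring TPM on the median gene, added after seeing the data, gave 23 above and 3 below, and SiCIRBP_2 highest for 35 (33.4% of all genes) and lowest for 5 (27.9%). The motif of 2 blocks was found in 23 genes in place of 8. The median log2 fold change of the members (0.16) stayed positive in every fit run, from 0.076 without SiCIRBP replicate 3 to 0.25 over all 6 libraries, and the count of 0 for implied length was 0 in every fit run. The cause of these shifts was not tested.

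The log2 fold change of BAG1 (-0.15) became 0.027 over 6 libraries with edgeR, 0.029 with DESeq2, 0.011 with the replicate block and 0.011 with SiCIRBP_2 added. For DNAJC7 (-0.01) it became 0.24 over 6 libraries with edgeR and with DESeq2, 0.20 with the block, 0.26 with SiCIRBP_2 added and 0.041 without SiCIRBP replicate 3, in a range of -0.084 to 0.041 with 1 library left out. For HSPH1 (0.02) it became -0.04 without NC replicate 3 and -0.16 without SiCIRBP replicate 3, in a range of -0.16 to 0.17. Over the 26 members given in full, 225 values kept direction and side of the threshold, 79 lost the threshold, 23 gained it and 11 changed sign. Only the 12 members that passed could lose it. All 12 did with edgeR over all 6 libraries, with the replicate block and with SiCIRBP_2 added. With NC_1 added 10 did, and with DESeq2 over 6 libraries 8 did. Deviations of same-numbered libraries from their group means correlated at -0.118, 0.00605 and -0.0264 over 15217 genes. The labels do not say whether same-numbered libraries were paired. These correlations cannot settle it, because the discrepant SiCIRBP_2 enters the mean from which every SiCIRBP deviation was taken.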
